A study of Mus musculus with 4 samples.

Results

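Dermal fibroblast lineage genes are described here in the skin of Tsk1/+ mice, as 10 genes chosen by their annotated symbol: the receptors Pdgfra and Pdgfrb, the transcription factors Prrx1, Twist1 and Twist2, the matrix protein gene Dpt, the cell-surface peptidases Fap and Dpp4, and the surface glycoproteins Thy1 and Cd34. All 10 were measured, by 20 of the 32664 probes with a single gene symbol, among 19532 genes in all. The samples were 4 two-colour arrays, titled 1-1, 1-2, 2-1 and 2-2, each pairing skin RNA (Cy3) with RNA of a cell line named UMR in the labels (Cy5), the reference. Tsk1/+ mice are heterozygous for Tsk1, a mutation of the fibrillin-1 gene that thickens the skin and is used as a model of scleroderma; the titles call them Tsk1 transgenic, and the labels give no strain, treatment, age, sex or skin site. Wild-type skin was not analysed here, so each value sets Tsk1/+ skin against cultured cells. Any effect of the mutation is mixed into it and cannot be told apart. Whether each sample was a different animal is not given, so the spread behind every p-value may be technical and is that of these samples alone.

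Fibroblasts build and maintain the collagen network of the dermis. In the embryo they share a progenitor that splits into a papillary lineage below the epidermis and a reticular lineage deeper down, which also gives rise to fat cells beneath it. Platelet-derived growth factor (PDGF) receptors drive their growth, Twist and Prrx1 factors mark mesenchyme during development, and surface proteins such as DPP4 and THY1 are used to sort their subsets. Several of these markers are shared with other cells: CD34 with endothelium and hair follicle stem cells, THY1 with mouse T cells and neurons, and PDGFRB with pericytes. In whole skin, fewer cells of a type and less RNA per cell cannot be told apart.

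Values are log2 ratios of skin over reference. The labels do not say which channel was divided by which, and the likely direction was read from 15 measured genes of cornified epidermis, a tissue that ordinary cultured cells do not form. As deposited, these genes had medians of -5.25, -4.64, -4.63 and -5.71 on arrays 1-1, 1-2, 2-1 and 2-2, and all signs were turned for that reason. An exact 0 was listed for 21.4% to 29.1% of probes on an array, and 50.9% to 59.5% of probes held a value that 50 or more probes of the same array shared exactly, zeros included. Such repeated values carry little information on a single gene and are named below wherever a result for one of the 10 genes rests on them. The medians of other gene lists include such values, and their medians without them are given where they differ by more than 1 log2 unit. With 4 arrays, their number limits the precision.

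The lineage genes ran from far above the reference to below it. A gene was called where its adjusted p was below 0.05 and its mean lay 1 or more from 0 on the log2 scale. By that rule 6 of the 10 genes were higher in skin (Dpt, Cd34, Fap, Dpp4, Thy1 and Twist1), 1 was lower (Twist2) and 3 did not pass (Pdgfrb, Prrx1 and Pdgfra). Over all genes tested, 11.0% were higher and 7.52% were lower. Without repeated values, a setting chosen after seeing the data, the same 6 and 1 genes were called, where 22.6% and 15.1% of the 11543 genes left were. The median of the 10 genes was 1.44, against 0.02 for all genes. In the order of the means, each gene stood above the next on all 4 arrays except at 2 steps: Cd34 exceeded Fap on 3 arrays (mean difference 0.46 ± 0.49, SD, n = 4) and Fap exceeded Dpp4 on 2 (0.11 ± 0.58). The place of Cd34 rests on a Fap and a Dpp4 probe that held repeated values only. Without repeated values Fap (mean 4.33) and Dpp4 (3.15) stood above Cd34 (2.73) on every array. All these values are ratios to a shared reference, so the order says nothing about which gene is most abundant in skin.

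**Figure D1:**
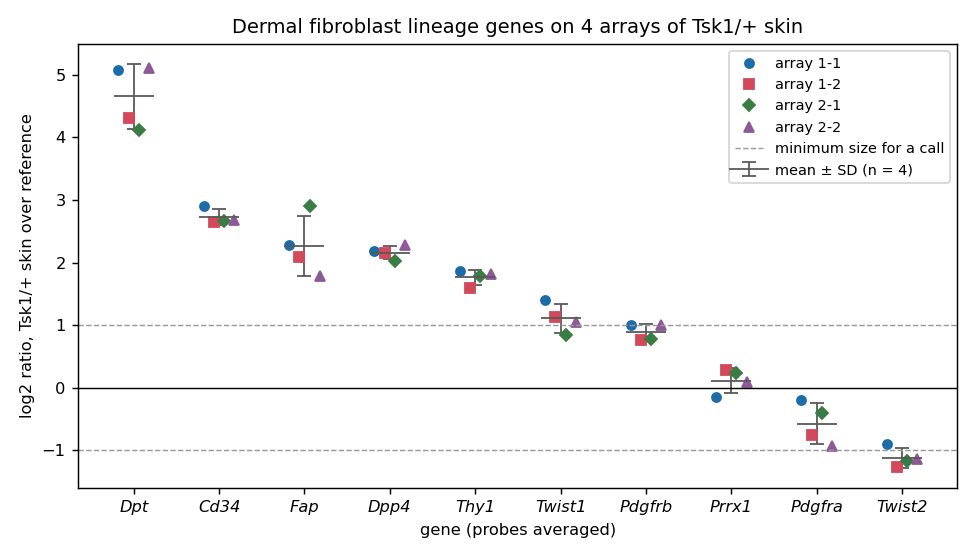
Log2 ratio of Tsk1/+ skin over reference (vertical axis) for the 10 genes, probes averaged; symbols are the 4 arrays, bars the mean and SD, and dashed lines the minimum size of 1 required to pass. Dpt lies between 4.12 and 5.11 on every array, while Twist2 lies between -1.27 and -0.90.

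Dpt encodes dermatopontin, a small protein of the dermal matrix that binds decorin and collagen. It stood at 5.08, 4.31, 4.12 and 5.11 on arrays 1-1, 1-2, 2-1 and 2-2, the highest of the 10 on each array with probes averaged. Without repeated values Fap stood above Dpt on array 2-1, at 4.75. Its mean was 4.65 ± 0.51 (SD, n = 4; 95% interval 3.99 to 5.32), or 25.2-fold, with an adjusted p of 0.000826. This mean lay above those of 98.8% of all genes. Arrays 1-1 and 2-2 were the high ones, and the other pair stood lower. Muscle genes split in the same manner: the list median of 10 skeletal muscle genes, all of them higher, was 6.10, 5.62, 5.55 and 6.64 on arrays 1-1, 1-2, 2-1 and 2-2, and their means ran from 5.08 ± 0.76 for Casq1, a calcium store protein, to 6.51 ± 0.76 for the myosin Myh2. The cornified epidermis median was 5.25, 4.64, 4.63 and 5.71 in the same order, with Flg2 highest (7.47 ± 1.01) and Flg, the filaggrin gene, listed at 0 on all 4 arrays. Not every list split so. In the same order, the median of general fibroblast genes was 0.47, 0.68, 0.96 and 0.70. That of reticular and deep dermis was 2.58, 2.60, 2.61 and 2.43 (3.58, 3.58, 3.55 and 3.28 without repeated values). The part of muscle and epidermis in the spread of Dpt was not tested. The 3 genes whose values over the 4 arrays lay nearest to those of Dpt were Retn, the fat cell hormone resistin (root mean square difference 0.11), Krt5, the keratin of basal keratinocytes (0.12), and Evpl, the cornified envelope protein envoplakin (0.17).

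Promoters are shown for Dpt, the highest of the genes, for Pdgfra and Twist2, the lowest pair, and for Twist1, the relative of Twist2, because TWIST proteins bind the E-box, the letters CANNTG, which read alike on both strands. The sequences are the 250 bases before the RefSeq start on build GRCm38.p6, all on the plus strand, with E-boxes in capitals. They cover chr1:164796413-164796662 for Dpt, chr5:75152001-75152250 for Pdgfra, chr12:33957421-33957670 for Twist1 and chr1:91801211-91801460 for Twist2. The array annotation names no genome build.
Dpt: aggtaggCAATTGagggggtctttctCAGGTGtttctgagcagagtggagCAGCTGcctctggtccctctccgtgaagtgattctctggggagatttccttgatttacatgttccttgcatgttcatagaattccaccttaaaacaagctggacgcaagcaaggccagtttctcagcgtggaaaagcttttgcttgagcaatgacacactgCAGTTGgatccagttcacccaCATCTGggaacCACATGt
Pdgfra: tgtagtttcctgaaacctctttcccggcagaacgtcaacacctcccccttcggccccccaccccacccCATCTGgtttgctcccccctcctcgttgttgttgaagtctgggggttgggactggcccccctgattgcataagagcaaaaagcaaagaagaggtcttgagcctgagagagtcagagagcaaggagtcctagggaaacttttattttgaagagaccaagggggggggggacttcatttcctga
Twist1: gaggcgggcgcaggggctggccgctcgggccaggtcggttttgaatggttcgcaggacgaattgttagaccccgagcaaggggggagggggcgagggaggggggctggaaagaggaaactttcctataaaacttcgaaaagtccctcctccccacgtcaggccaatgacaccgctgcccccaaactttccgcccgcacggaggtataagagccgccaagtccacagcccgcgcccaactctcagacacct
Twist2: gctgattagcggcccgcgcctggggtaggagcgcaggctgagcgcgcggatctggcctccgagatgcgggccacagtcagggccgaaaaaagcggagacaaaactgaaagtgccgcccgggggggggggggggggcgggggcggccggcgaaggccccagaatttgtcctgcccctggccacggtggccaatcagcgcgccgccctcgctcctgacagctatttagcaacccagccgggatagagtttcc

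The Dpt window held 6 E-boxes, which began 243, 224, 200, 39, 18 and 7 bases before the start. At least 6 were found in 0.3% of the 32851 promoter windows of the same length in the RefSeq table, and at least 1 in 66.2% of them. Windows were searched for 7 lineage genes. Fap and Thy1 had no promoter entry. Pdgfrb was left out of the search, for a reason that was not recorded, so nothing below covers it. Beside Dpt, Dpp4 and Pdgfra had 1 E-box each and Twist1, Twist2, Prrx1 and Cd34 had none. Of these 7, the Twist2 and Twist1 windows were the richest in G and C, at 68.8% and 62.4%. The other 5 had 43.6% to 54.4%. Twist2 and Twist1 held 23 and 18 CpG dinucleotides, against 3 to 6 in the others. The homeobox core TAATTA, searched on both strands, occurred only in the Prrx1 window among the 7 and in 4.8% of all windows. A match of letters is a description and not a bound site.

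Twist1 and Twist2 encode closely related basic helix-loop-helix factors of mesenchyme, and Twist2 was also named Dermo1 for its expression in dermis. They stood on opposite sides of the reference. Twist1 was at 1.41, 1.14, 0.84 and 1.05 on arrays 1-1, 1-2, 2-1 and 2-2, and Twist2 was at -0.90, -1.27, -1.16 and -1.14. All 4 Twist1 values were above 0 and all 4 Twist2 values below it. The means were 1.11 ± 0.23 (95% interval 0.80 to 1.41, adjusted p = 0.00351) for Twist1 and -1.12 ± 0.16 (95% interval -1.32 to -0.91, adjusted p = 0.00135) for Twist2. Both lay close to the minimum size, and neither passed limma's treat test against a 2-fold change (adjusted p = 1 for Twist1 and 0.572 for Twist2). By treat 6.85% of all genes were higher and 3.55% lower. Arrays were also averaged to 2 values by their first title number, too few for a firm test. Twist1 then lost its call (adjusted p = 0.052), where 10.7% of all genes were higher and 6.88% lower. Within an array Twist1 exceeded Twist2 by 2.00 to 2.41 log2 units, with a mean difference of 2.23 ± 0.17 (SD, n = 4). The exact sign-flip test gave a two-sided p of 0.13, the smallest that 4 arrays allow (0.1875 adjusted over 3 pairs of related genes). Each gene has a single probe, and no value of either was a repeated one. The genes with values nearest to Twist2 were Psph, a phosphatase of serine synthesis (root mean square difference 0.03), Zfhx3, a zinc finger homeobox factor (0.04), and Pcsk4, a proprotein convertase (0.05).

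Prrx1, a homeobox gene of limb and skin mesenchyme, stood at -0.15, 0.29, 0.23 and 0.09 on arrays 1-1, 1-2, 2-1 and 2-2, with a mean of 0.12 ± 0.20 (95% interval -0.14 to 0.37, adjusted p = 0.401). This mean near 0 combines 6 probes that did not behave alike. On array 1-1 probes 1, 2 and 6 of Prrx1 were at -0.49, -0.52 and -0.80. On array 1-2 the same probes were at 0.28, 0.29 and 0.19, on array 2-1 at 0.43, 0.21 and 0.26, and on array 2-2 at 0.44, 0.44 and 0.27. None of these values was a repeated one, and all 3 probes placed array 1-1 below 0 and the others above it. Probes 3, 4 and 5 rested on repeated values on 4, 3 and 4 arrays, and on array 1-1 they were above 0. Without repeated values the Prrx1 values were -0.61, 0.26, 0.30 and -0.04 on arrays 1-1, 1-2, 2-1 and 2-2, and their mean turned to -0.02 ± 0.42 (adjusted p = 0.9). The cause of the spread between arrays was not tested.

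**Figure D2:**
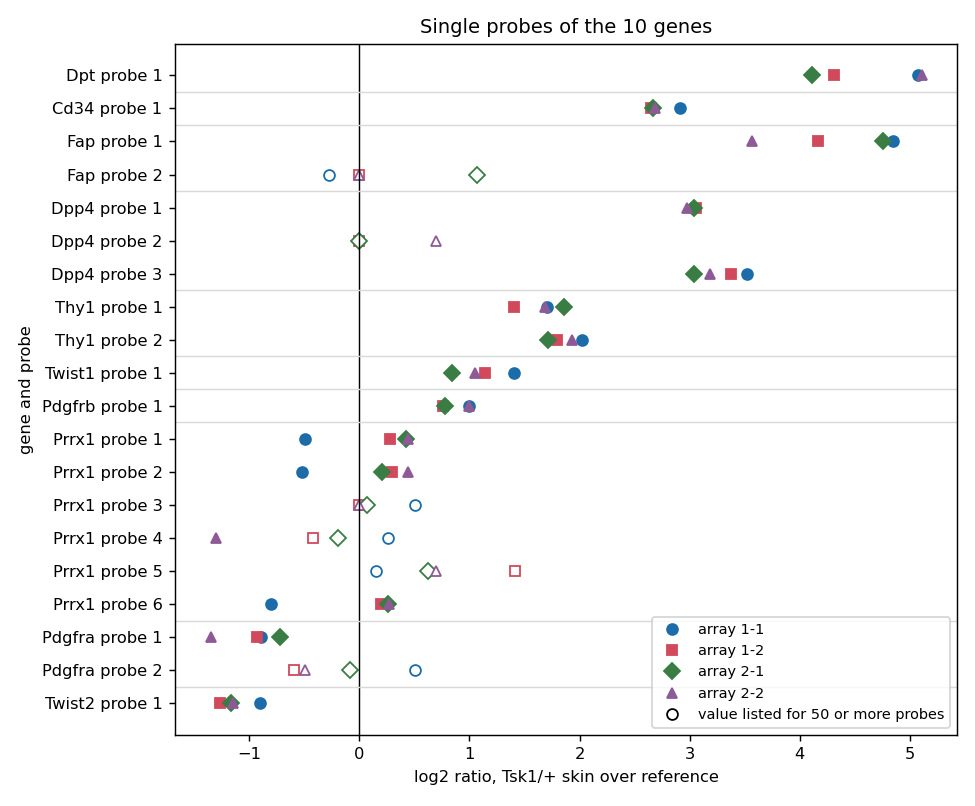
Log2 ratio of Tsk1/+ skin over reference (horizontal axis) for each of the 20 probes of the 10 genes, genes in the order of their means; symbols are the 4 arrays, and open symbols are values that 50 or more probes of the array share. The second probes of Fap and Dpp4 hold open symbols only, while the filled symbols of the other Fap probe lie between 3.57 and 4.85.

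The PDGF receptors are tyrosine kinases that answer to dimers of PDGF chains. Pdgfra, the receptor that marks most dermal fibroblasts, was at -0.19, -0.76, -0.40 and -0.92 on arrays 1-1, 1-2, 2-1 and 2-2, below the reference on all 4 arrays. Its mean of -0.57 ± 0.33 did not pass (95% interval -1.0 to -0.14, adjusted p = 0.0509). One of its probes stood at -0.89, -0.93, -0.72 and -1.35, whereas the second held repeated values on every array (0.50, -0.59, -0.09 and -0.50). With the first probe alone Pdgfra was at -0.97 ± 0.27 (adjusted p = 0.00613), still below the minimum size; its adjusted p ran from 0.000145 to 1 over 15 alternatives, and it was called under none of them. Pdgfrb, the receptor shared with vessel walls, stood at 1.0, 0.76, 0.78 and 1.0 on the same arrays. Its mean of 0.88 ± 0.13 was above 0 (95% interval 0.71 to 1.06, adjusted p = 0.00161) but below the minimum size. Within an array Pdgfra lay 1.18 to 1.92 log2 units below Pdgfrb (mean difference -1.45 ± 0.35, exact sign-flip p = 0.13, the smallest possible, 0.1875 adjusted over 3 pairs). The values did not overlap: the highest Pdgfra value, -0.19, was below the lowest Pdgfrb value, 0.76.

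Because Pdgfrb is shared with pericytes, the contractile cells of small vessels, their markers are given beside it. Of 10 pericyte genes, 6 were higher and none lower, from Des, the intermediate filament protein desmin, which muscle also holds (4.39 ± 0.29, adjusted p = 0.000391), to Cspg4, the proteoglycan NG2 (0.85 ± 0.19, adjusted p = 0.00404, under the minimum size). The list median was 1.23, 2.28, 2.97 and 1.62 on arrays 1-1, 1-2, 2-1 and 2-2, while Pdgfrb was highest on arrays 1-1 and 2-2. Kcnj8 was listed at 0 on 3 arrays, and Steap4 and Vtn were on array 1-1. Without repeated values, which left 7 to 10 of the genes, the list medians were 2.67, 3.61, 3.64 and 2.73 on the same arrays. The part of pericytes in the Pdgfrb ratio was not tested. Of 6 genes of PDGF ligands and their activators, 1 passed: Plat, the tissue plasminogen activator that also cleaves PDGF-C (1.01 ± 0.15, adjusted p = 0.00165). Pdgfd, the chain with the highest mean, was at 2.23, 2.23 and 2.07 but was listed at 0 on array 2-2 (adjusted p = 0.0716), and Pdgfc had the lowest (-0.28 ± 0.07, adjusted p = 0.00643, under the minimum size).

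Fap and Dpp4 encode related dipeptidyl peptidases of the cell surface; Fap is a marker of activated fibroblasts, and Dpp4, also called CD26, marks fibroblasts of the papillary lineage and of the fascia in mouse skin. Their genes lie on chromosome 2 with only 1 protein-coding gene, Gcg, between them in the RefSeq annotation. Fap stood at 2.29, 2.08, 2.91 and 1.78 on arrays 1-1, 1-2, 2-1 and 2-2 (mean 2.27 ± 0.48, 95% interval 1.65 to 2.88, adjusted p = 0.00339). Dpp4 was at 2.18, 2.15, 2.03 and 2.29 (mean 2.16 ± 0.11, 95% interval 2.02 to 2.31, adjusted p = 0.000316). The lowest value of either gene was 1.78. Fap lost its call when arrays were averaged to 2 values by their second title number (adjusted p = 0.053), too few for a firm test. By that setting 10.2% of all genes were higher and 6.65% lower. Both means were lowered by a probe that held repeated values only. The second Fap probe was listed at 0 on 2 arrays, and the second Dpp4 probe at 0 on 3.

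The remaining probes placed both genes much higher. The first Fap probe stood at 4.85, 4.17, 4.75 and 3.57 on arrays 1-1, 1-2, 2-1 and 2-2. The first Dpp4 probe was at 3.03, 3.06, 3.04 and 2.98 and another at 3.52, 3.38, 3.04 and 3.19, so that both lay between 2.98 and 3.52 throughout. Without repeated values Fap was at 4.33 ± 0.59 (adjusted p = 5.99e-07), 20.2-fold instead of 4.81-fold. Dpp4 was then at 3.15 ± 0.11 (adjusted p = 8.6e-08), 8.9-fold instead of 4.47-fold. The order of this pair followed the handling of probes. Fap minus Dpp4 was 0.11 ± 0.58 with probes averaged (exact sign-flip p = 0.75; -0.15 without array 2-1), -0.76 ± 0.46 with the median of probes, and 1.18 ± 0.57 without repeated values (exact p = 0.13 for each of the last 2). Of 8 other genes named as dipeptidyl or prolyl peptidases, not all of 1 family, none was higher. The 1 lower gene was Prep, a cytosolic oligopeptidase (-1.34 ± 0.19, adjusted p = 0.00137). Dpp3 was highest, at 0.73 ± 0.30 (adjusted p = 0.0199).

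**Figure D3:**
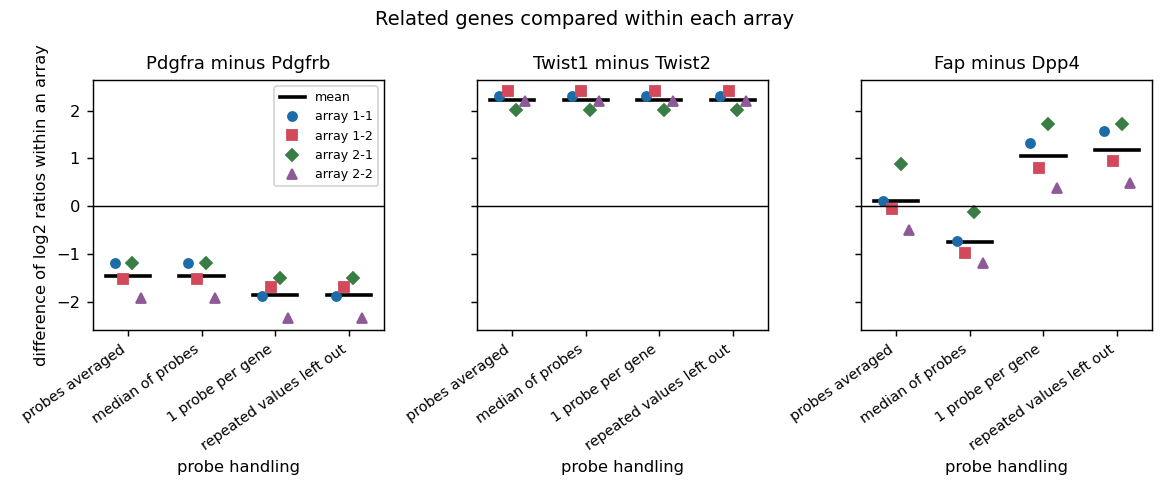
Difference of log2 ratios between related genes within each array (vertical axis, log2 units) under 4 ways of handling probes; symbols are the 4 arrays and bars their mean. Twist1 minus Twist2 is the same under each, at 2.23, whereas the mean of Fap minus Dpp4 runs from -0.76 to 1.18.

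Thy1 and Cd34 are surface glycoproteins that serve as fibroblast markers and are shared with other cells. Thy1 stood at 1.86, 1.60, 1.79 and 1.81 on arrays 1-1, 1-2, 2-1 and 2-2 (mean 1.76 ± 0.12, 95% interval 1.61 to 1.92, adjusted p = 0.000407). Its 2 probes averaged 1.66 and 1.87 and held no repeated value. Cd34 was at 2.91, 2.65, 2.67 and 2.68 (mean 2.73 ± 0.12, 95% interval 2.56 to 2.89, adjusted p = 0.000293), with array 1-1 above the other 3, which lay between 2.65 and 2.68. These 2 genes and Dpp4 had the smallest spread over arrays of the 10, with SDs of 0.11 to 0.12.

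Markers of the other cells that carry THY1 and CD34 were mixed. Of 9 T cell genes, 2 were higher and 1 was lower, with Cd3d at the top (2.31 ± 0.97, adjusted p = 0.021) and Cd5 at the bottom (-1.46 ± 0.36, adjusted p = 0.00513). The T cell median was 0.09, 0.00, -0.01 and 0.00 on arrays 1-1, 1-2, 2-1 and 2-2, where both medians of 0.00 were listed zeros, of Cd8a and Cd27. Of 9 neuron genes, 1 was higher, Uchl1, a ubiquitin hydrolase (3.39 ± 0.10, adjusted p = 0.000239), while Stmn2, a tubulin-binding protein, had the lowest mean (-0.98 ± 0.09, adjusted p = 0.000689, under the minimum size) and Gap43 was listed at 0 on every array. For CD34, 7 of 11 endothelial genes were higher and none lower, with list medians between 1.93 and 2.34 on the 4 arrays. Cldn5, an endothelial tight junction protein, had the highest endothelial mean but was listed at 0 on array 2-2 and did not pass (adjusted p = 0.0774), and Ptprb, a phosphatase of vessel walls, had the lowest and was listed at 0 on 2 arrays. Without repeated values the endothelial medians lay between 3.07 and 3.51 over 9 or 10 genes. Of 7 hair follicle stem cell genes, 6 were higher, led by the keratin Krt15 (4.11 ± 0.40, adjusted p = 0.000682), with list medians between 2.70 and 3.35; Lgr5, the lowest, was listed at 0 on array 2-2. Of 9 genes of mast cells and blood progenitors, 4 were higher, led by the mast cell protease Cpa3 (5.13 ± 0.52, adjusted p = 0.000707), with medians between 0.50 and 1.62, and the factor Gata2 was lowest (-0.71 ± 0.21, adjusted p = 0.00809, under the minimum size). The median of 0.50 was a repeated value, and without such values the medians lay between 1.53 and 2.49 over 6 or 7 genes. Cd34 itself ranged over only 0.26. The part of any of these cells in the Thy1 and Cd34 ratios was not tested.

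Other fibroblast genes ran from far above the reference to below it. Among 19 general fibroblast genes, 9 were higher and 1 was lower, with a median of 0.66. The proteoglycan gene Lum was highest (6.40 ± 0.08, adjusted p = 0.000118), and Vim, the intermediate filament protein vimentin of most cultured cells, was lowest (-1.10 ± 0.49, adjusted p = 0.0243). Of 7 myofibroblast genes, 2 were higher, led by Postn, the matrix protein periostin (2.13 ± 0.05, adjusted p = 0.000237), and 2 were lower, with Tagln, the actin-binding protein transgelin, at the bottom (-1.41 ± 0.16, adjusted p = 0.000872).

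Among genes of the dermal layers, most that passed the test were above the reference. Of 12 measured genes of reticular and deep dermis, 9 were higher and 1 was lower, with a median of 2.51 and array medians of 2.43 to 2.61 (3.28 to 3.58 without repeated values). They included the secreted Wnt modulator Sfrp4 (6.15 ± 0.40), the microfibril protein Mfap5 (5.72 ± 0.48) and Pi16, a marker of adventitial fibroblasts (4.99 ± 0.40). Dlk1, a membrane protein of immature fibroblasts and preadipocytes, was the exception at -4.17 ± 0.23 (adjusted p = 0.000334). Of 11 papillary dermis genes, 6 were higher and 1 was lower, with a median of 1.23 and array medians of 1.15 to 1.38 (1.67 to 2.40 without repeated values, over 8 to 10 genes). Among the 6 were the Wnt target Axin2 (2.37 ± 0.30), Col23a1, a membrane collagen (1.54 ± 0.11), and the repressor Prdm1 (1.23 ± 0.20). The lower gene was the Wnt effector Lef1 (-1.28 ± 0.18, adjusted p = 0.00138).

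Dermal papilla genes, which mark the fibroblasts at the base of the hair follicle, had a median of -0.02. Without repeated values, which left 6 or 7 of the 12, the array medians lay between -1.74 and -1.61. Of 12 genes, 4 were lower: Inhba, the activin A chain (-2.14 ± 0.12), Crabp1, a retinoic acid binding protein (-1.91 ± 0.25), and the growth factors Fgf10 (-1.75 ± 0.10) and Fgf7 (-1.74 ± 0.16). Their adjusted p-values ran from 0.000334 to 0.00113. The only higher one was Sox18 (4.42 ± 0.29, adjusted p = 0.000395), a factor that vascular endothelium also uses. Sox2 was listed at 0 on all 4 arrays.

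Other E-box and mesenchymal transcription factors went both ways, as did all genes tested (11.0% higher and 7.52% lower). Of 20 E-box and mesenchymal factors, 3 were higher: Id4, an inhibitor of helix-loop-helix factors (3.75 ± 1.03, adjusted p = 0.00662), Tbx15, a T-box factor of the dermis (1.68 ± 0.13, adjusted p = 0.000528), and Zeb2, an E-box repressor (1.05 ± 0.21, adjusted p = 0.00302). The 3 lower ones were Foxc2, a forkhead factor of mesenchyme (-2.54 ± 0.34, adjusted p = 0.00122), Snai1, the repressor Snail (-1.42 ± 0.24, adjusted p = 0.00209), and Prrx2, the paralogue of Prrx1 (-1.02 ± 0.08, adjusted p = 0.000604). Prrx2 stood at -1.0, -1.14, -0.97 and -0.96 on arrays 1-1, 1-2, 2-1 and 2-2, below the Prrx1 mean of probes on every array. The list's median of -0.08 was near that of all genes.

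**Figure D4:**
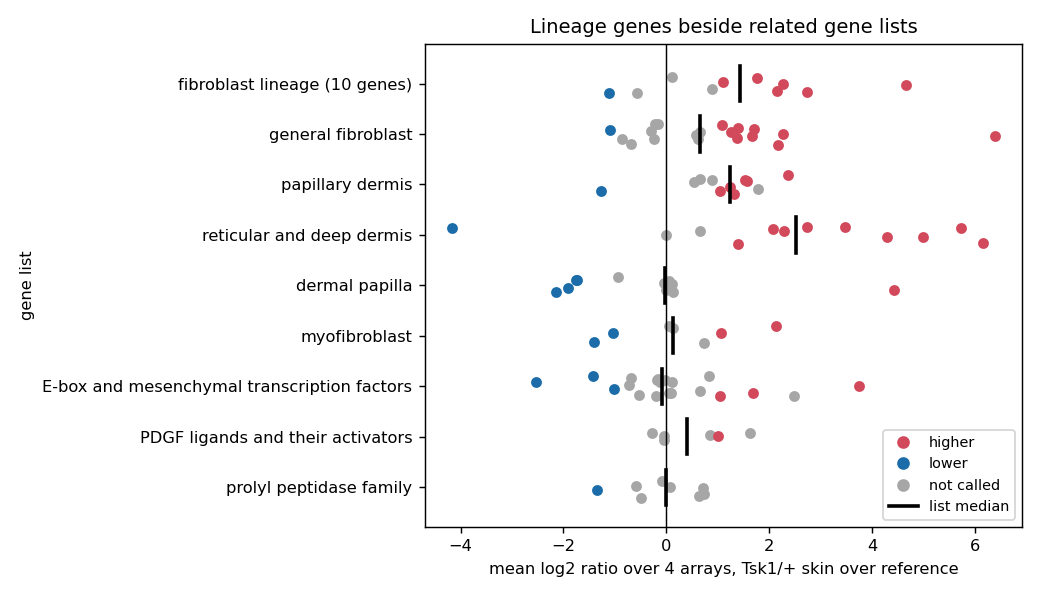
Mean log2 ratio over 4 arrays (horizontal axis) of each gene in the lineage group and in 8 related lists; colours give the result of the test and black bars the list medians. The lineage genes have a median of 1.44, between the papillary list at 1.23 and the reticular list at 2.51. Without repeated values, not drawn here, the papillary array medians (1.67 to 2.40) lay above those of the lineage genes (1.313 to 1.635) on each array.

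Proliferation genes are given because the labels name the reference as a cell line. All 13 measured were lower in skin, with a median of -2.36. They ran from Aurkb, a mitotic kinase (-3.06 ± 0.37), to the cyclin-dependent kinase Cdk1 (-1.09 ± 0.05). All 9 adipocyte genes measured were higher, with a median of 4.68, from Cidec, a lipid droplet protein (7.69 ± 0.46), to Lipe, the hormone-sensitive lipase (1.89 ± 0.14). The part of fat and of growth in culture in the lineage ratios was not tested.

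Arrays were also compared by their title numbers, 2 against 2, a comparison in which 0.00% (first number) and 0.00512% (second number) of all genes passed limma's test after adjustment, so that little can be read from the lineage genes not passing it. None of the 10 passed (smallest adjusted p = 0.957 for the first number and 0.907 for the second). At an unadjusted p below 0.05 there were 0 of the 10 for the first number and 1 for the second, where 4.0% and 4.96% of all genes were. The 1 gene was Pdgfra, at -0.19 and -0.40 on the arrays with second number 1 and -0.76 and -0.92 on those with number 2 (unadjusted p = 0.025). Fap was at 2.29 and 2.91 on arrays with number 1 and at 2.08 and 1.78 on those with number 2 (unadjusted p = 0.121). With exact zeros left out, Pdgfra had an unadjusted p of 0.0526. The Fap mean was then 2.60 for number 1 against 3.87 for number 2 (unadjusted p = 0.0106, adjusted p = 0.999). By construction, this setting dropped the second Fap probe on arrays 1-2 and 2-2 only, so the Fap means compare different probes. The first Fap probe stood at 4.85 and 4.75 on arrays with number 1 and at 4.17 and 3.57 on those with number 2. By the first number, Twist1 was at 1.41 and 1.14 on arrays with number 1 and at 0.84 and 1.05 on those with number 2 (unadjusted p = 0.13). How many of all genes show such a separation was not counted. Of the 10 genes, 6 had their highest value on array 1-1, where 30.3% of the 17723 genes with a single highest array had theirs. Prrx1 was the only 1 of the 10 with its lowest value there, where 25.2% of the genes with a single lowest array had theirs.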

How the data were processed

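Per the labels, 200 ng of total skin RNA went into an Agilent Quick-Amp reaction; skin carried Cy3 and the reference Cy5 on all 4 arrays, so dye and sample effects cannot be told apart. The authors deposited 1 log ratio per probe and array, read here as log2: of 3120 pairs formed by the 40 values most often repeated on an array, 21 were spaced as log2 would space them (2 times the log of 2, within 0.001), 2 as natural log and 4 as log10. The sources used here state neither background correction, normalization, log base nor direction. Each column's median was 0, among its zeros, so centring is unknown; genes were not centred.

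Of 41174 probes, 32664 have 1 gene symbol in the platform annotation, 45 several and 8465 none; 32524 matched GRCm38.p6 genes by Entrez ID, which gave names only. Values were averaged over the probes of a gene, zeros included. The fit (limma 3.58.1, R 4.3.3, lmFit and eBayes, two-sided, Benjamini-Hochberg over 19532 genes) took genes measured on 3 or 4 arrays. Every adjusted p comes from these fits unless a sign-flip test is named, and ± is the SD over 4 arrays. Related genes were compared by exact sign-flip permutation. Alternatives left out each array, dropped zeros, used other probe rules, centred arrays, applied treat, or combined or blocked arrays by title number. The fit was tested on simulated data. Named were the 10 genes, the highest and lowest gene of each other list, genes (not all) past the test in the dermal, PDGF, peptidase and transcription factor lists, and the 3 genes nearest to Dpt and to Twist2; Kcnj8, Steap4, Vtn, Cd8a, Cd27, Gap43, Sox2 and the Prrx1 probe pattern were chosen after their values were seen. Genes and lists were chosen with earlier results of these data known. Promoters come from RefSeq; figures were drawn with matplotlib 3.10.9.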

Additional observations from a re-analysis of the deposited data

Results flagged for a closer look

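Of 25 profiles tested for 1 array far from the other 3 (10 genes and 15 probes of genes with several), 4 stood out by Dixon's ratio; chance marks about 1 in 20, and the profiles are not independent. Cd34 was at 2.91 on array 1-1, above 2.65 to 2.68 on the others. The sixth Prrx1 probe was at -0.80 on array 1-1, below 0.19 to 0.27 on the others. The third Prrx1 probe was at 0.50 on array 1-1 and the second Dpp4 probe at 0.69 on array 2-2, but both hold repeated values only.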

How the results depend on the processing

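Under the 15 alternatives, Dpt, Cd34, Dpp4 and Thy1 kept their direction and their call, and 6 genes were called higher under every one except 3, each with 5: limma's treat and averaging by the first title number, both without Twist1, and averaging by the second, without Fap (adjusted p = 0.053). By treat against a 2-fold change, 0 genes were called lower, with 0 at an unadjusted p below 0.05, since Twist2 had an unadjusted p of 0.0894; by the test against 0, 1 was. Over all genes treat called 1338 higher and 694 lower, against 2150 and 1468. Prrx1 turned to -0.023 without zeros and repeated values (chosen after seeing the data), where its probe 4 entered on array 2-2 only. Pdgfra minus Pdgfrb was -1.86 with 1 probe per gene and also without repeated values. Fap minus Dpp4 was -0.76 with the median of probes, 1.05 with 1 probe per gene and 1.18 without repeated values, and ran from -0.15 to 0.31 when an array was left out, turning below 0 without array 2-1. By construction, other probes enter the value of a gene under these settings. Centring arrays on their non-zero values moved the median of all genes to -0.06, against 0.02 as deposited, and changed no call of the 10. Signal over background was not analysed here, so which ratios are limited by dim spots is unknown. No paired analysis was possible because the samples form 1 group.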
